A study of Homo sapiens with 12 samples.

Results

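The response of JVM2 cells to a UGT2B17 expression vector was examined in 6 of the 12 samples of the series, namely 3 biological replicates of JVM2-2B17 and 3 of JVM2-CTRL. JVM2 is an established human line of neoplastic B cells that expresses cyclin D1. JVM2-2B17 cells were made by electroporation with a pcDNA6 vector that carries the coding sequence of human UGT2B17, and JVM2-CTRL cells by electroporation with pcDNA6 alone. Both populations were kept under the same concentration of the selecting antibiotic, blasticidin. Each arm is a stably selected population, and the sources used here do not state whether it is a pool or a clone. An effect of the enzyme and a difference that arose between the selected populations for other reasons therefore cannot be told apart. Total RNA was depleted of ribosomal RNA and sequenced, and the number of reads counted on each gene was analysed, for 13021 genes tested of 17144 listed.

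UGT2B17 is a UDP-glucuronosyltransferase, an enzyme of the endoplasmic reticulum that joins glucuronic acid to small lipophilic molecules and thereby makes them water soluble and ready for export. Its known substrates include androgens, the drug vorinostat and, among the eicosanoids, prostaglandins. Prostaglandin E2 is made from arachidonic acid by cyclooxygenases and prostaglandin E synthases, and in B cells acts through the receptors EP2 and EP4, which raise cyclic AMP. The comparison asks which transcripts of a B-cell line differ once the enzyme is expressed at a higher level.

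The libraries held 8809179 to 11231330 counts, and their TMM scaling factors lay between 0.984 and 1.01. Expression is given in CPM, counts scaled to library size with the TMM factors, in the order of replicates 1, 2 and 3 of each arm. A gene was called higher or lower when the adjusted p of edgeR's quasi-likelihood test was below 0.05. The first principal component, with 79.3% of the variance, separated the arms, and the second, with 8.49%, set JVM2-2B17 replicate 2 apart from replicates 1 and 3. The mean chi-square per gene between JVM2-2B17 replicate 2 and the others of its arm was 8.35 and 8.58, against 2.24 between replicates 1 and 3. Replicate 2 also had the lowest share of mitochondrial transcripts, 0.164% of counts, against 0.353% and 0.382% in replicates 1 and 3 and 0.561% to 0.723% in JVM2-CTRL. Where leaving out this library ended or added the call of a named gene, or moved a count of at least 3 genes of a list by over 1.5 times, the value without it is given.

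UGT2B17 (ENSG00000197888, chromosome 4 from 68537173 to 68576413 of GRCh38) was expressed in the control arm and was higher in every JVM2-2B17 library, with 29.8, 26.2 and 27.4 CPM in JVM2-CTRL and 35.3, 45.3 and 35.6 CPM in JVM2-2B17. The gene was called higher (log2 fold change 0.48, SE 0.11, adjusted p = 0.0048), and the exact two-sided permutation test of the CPM gave p = 0.10, the smallest value that 3 against 3 allows. Without JVM2-2B17 replicate 2 the log2 fold change was 0.35. Reads from the vector and from the gene of the cells fall on the same coding sequence and were not separated. Scaled by exonic length, UGT2B17 had 10.8 ± 0.710 CPM per kilobase (SD, n = 3) in JVM2-CTRL and 15.1 ± 2.20 in JVM2-2B17, and its close paralog UGT2B15 had 0.857 ± 0.395 CPM per kilobase (SD, n = 3) in JVM2-CTRL and 1.38 ± 0.619 in JVM2-2B17. UGT2B15 was not past the threshold (log2 fold change 0.65, SE 0.37, adjusted p = 0.22), its arms overlapped, and reads of the paralogs may be split between them. UGT8, which makes a brain galactolipid, and UGT1A6 were the other members of the family in the table, with at most 9 counts in any library, and were not tested. Of the 6 genes that supply or release glucuronic acid, 1 fell (16.7%, near the 15.3% of all genes tested) and 5 were not past the threshold. The lower one was SLC35B1, a nucleotide transporter of the endoplasmic reticulum (log2 fold change -0.57, SE 0.083, adjusted p = 0.00026), while the median of the 6 was -0.03 on the log2 scale.

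A large part of the transcriptome differed between the arms. Of the 13021 genes tested, 3821 (29.3%) were called, with 1830 (14.1%) higher and 1991 (15.3%) lower in JVM2-2B17. Most changes were small: 1552 of the called genes differed by less than 1.3-fold and 1458 by 1.3-fold to 2-fold, while 811 (6.23% of those tested) differed by more than 2-fold. Among these, 344 were higher and 467 lower. Of the called genes, 3768 had no overlap between the arms, as had 5881 of all 13021 genes tested. The median log2 fold change of all genes tested was 0.00. These shares, 14.1% higher and 15.3% lower, and this median are the background of every gene list below, whose shares higher and lower are given in that order.

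**Figure D1:**
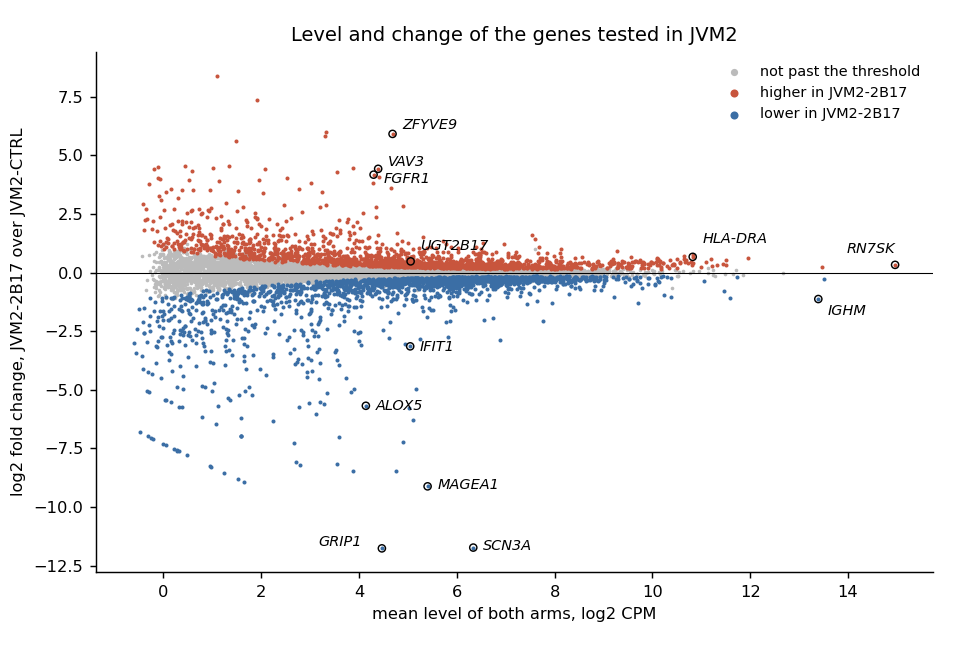
Mean level of both arms in log2 CPM (horizontal axis) against the log2 fold change of JVM2-2B17 over JVM2-CTRL (vertical axis), 1 point for each of the 13021 genes tested. Red points are the 1830 genes called higher, blue points the 1991 called lower, and grey points the genes not past the threshold. Fitted values of genes with almost no counts in an arm, such as GRIP1 and SCN3A, depend on the fit's prior count and are no measured folds.

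Several of the largest changes among well-expressed genes were close to an on-or-off difference. Of the 10 genes that rose most, ZFYVE9, which encodes the SARA adaptor of TGF-beta signalling (ENSG00000157077, chromosome 1 from 52142089 to 52348671 of GRCh38), had 0.797, 0.466 and 1.27 CPM in JVM2-CTRL and 52.5, 51.3 and 48.1 CPM in JVM2-2B17 (log2 fold change 5.91, SE 0.17, adjusted p = 2.2e-10). VAV3, an exchange factor for small GTPases downstream of antigen receptors (ENSG00000134215, chromosome 1 from 107571161 to 107965180 of GRCh38), had 1.59, 1.87 and 2.12 CPM in JVM2-CTRL and 37.9, 43.7 and 38.8 CPM in JVM2-2B17 (log2 fold change 4.42, SE 0.14, adjusted p = 3.0e-10). The fibroblast growth factor receptor gene FGFR1 had 2.19, 2.05 and 1.91 CPM in JVM2-CTRL and 37.2, 35.4 and 39.4 CPM in JVM2-2B17 (log2 fold change 4.17, SE 0.13, adjusted p = 2.5e-10). In these genes every JVM2-2B17 library was more than 10 times as high as every JVM2-CTRL library. ITPKB, a kinase that phosphorylates inositol trisphosphate, had 1.79, 2.61 and 2.76 CPM in JVM2-CTRL and 35.8, 39.4 and 45.3 CPM in JVM2-2B17 (log2 fold change 4.06, SE 0.16, adjusted p = 1.9e-09). PLCB1, a phospholipase that produces that second messenger, had 7.17, 8.49 and 6.47 CPM in JVM2-CTRL and 52.5, 49.9 and 54.6 CPM in JVM2-2B17 (log2 fold change 2.82, SE 0.10, adjusted p = 1.3e-09). The remaining 5 were the neuronal adhesion molecule NRCAM (log2 fold change 3.82), the ubiquitin ligase adaptor KLHL13 (3.58), the NMDA receptor subunit GRIN2A (2.79), the receptor TREML2 (2.56) and TLN2, the talin that links integrins to actin (2.38).

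Some of the 10 largest falls left almost no reads in JVM2-2B17. GRIP1, a scaffold protein of glutamate receptors (ENSG00000155974, chromosome 12 from 66347431 to 67069162 of GRCh38), had 45.5, 45.4 and 41.8 CPM in JVM2-CTRL and 0 in each JVM2-2B17 library. With no count in JVM2-2B17, this is at least 139.9-fold lower against a floor of 3 counts in each library. SCN3A, a sodium channel subunit (ENSG00000153253, chromosome 2 from 165087526 to 165204050 of GRCh38), had 161, 160.2 and 163 CPM in JVM2-CTRL and 0.0906, 0 and 0 CPM in JVM2-2B17, and the single read in JVM2-2B17 gives a ratio of the arms of 4645 (95% exact counting interval 833 to 183494, adjusted p = 9.4e-13). The cancer-testis antigen gene MAGEA1 (ENSG00000198681, chromosome X from 153179284 to 153183880 of GRCh38) had 79.5, 85.8 and 88.1 CPM in JVM2-CTRL and 0.181, 0.113 and 0.113 CPM in JVM2-2B17, a ratio of 607 (95% exact counting interval 237 to 2229, adjusted p = 5.0e-12). PAGE2B, of the same class, had 53.7, 51.96 and 56.04 CPM in JVM2-CTRL and 0.0906, 0.225 and 0.113 CPM in JVM2-2B17, a ratio of 387 (95% exact counting interval 151 to 1421, adjusted p = 2.1e-11). These genes were expressed in all JVM2-CTRL libraries and nearly silent in all JVM2-2B17 libraries. The next genes encode matrix and surface proteins. COL14A1, a collagen, had 61.98, 56.5 and 59.4 CPM in JVM2-CTRL and 0.544, 0.225 and 0.339 CPM in JVM2-2B17 (log2 fold change -7.23, SE 0.17, adjusted p = 2.8e-11). LTBP1, which binds latent TGF-beta, had 67.95, 67.8 and 69.1 CPM in JVM2-CTRL and 0.906, 0.676 and 1.02 CPM in JVM2-2B17 (log2 fold change -6.27, SE 0.13, adjusted p = 1.1e-11). The cadherin family gene FAT1 had 68.6, 63.6 and 59.9 CPM in JVM2-CTRL and 1.09, 0.901 and 1.47 CPM in JVM2-2B17 (log2 fold change -5.79, SE 0.14, adjusted p = 4.1e-11). The teneurin TENM1 had 67.6, 68.5 and 72.5 CPM in JVM2-CTRL and 2.08, 1.80 and 2.72 CPM in JVM2-2B17 (log2 fold change -4.98, SE 0.12, adjusted p = 3.7e-11). The other 2 of the 10, ALOX5 and IFIT1, are described with their pathways. None of the 20 genes lost its call when any replicate was left out, but they were chosen from the same values for their large changes. Of all called genes, 68.0% to 94.8% kept their call when 1 library was left out. Intervals of ratios cover counting error only.

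**Figure D2:**
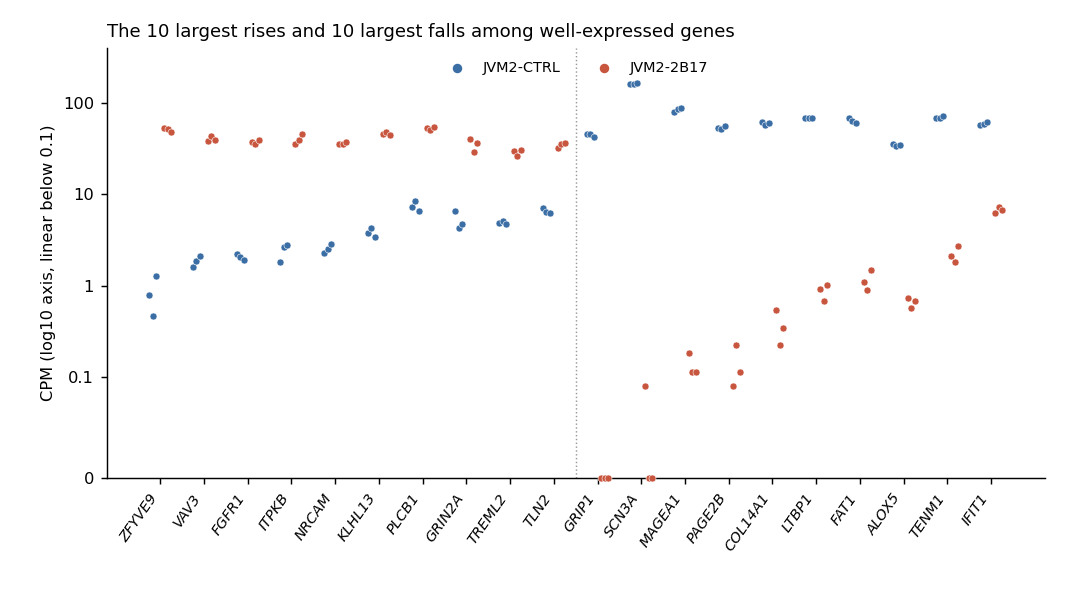
CPM of the genes named above as the 10 largest rises and falls (mean log2 CPM 4 or more), 1 point for each library (JVM2-CTRL blue, JVM2-2B17 red), on a log10 axis that is linear below 0.1. For each gene the 3 libraries of an arm lie together and apart from the other arm, and GRIP1 is at 0 in all JVM2-2B17 libraries. Only genes without overlap of the arms were chosen.

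By absolute level, the falls were led by immunoglobulin. IgM is the antigen receptor of naive-like B cells and, when secreted, the product of early plasma cells. Its heavy chain gene IGHM (ENSG00000211899, chromosome 14 from 105851705 to 105856218 of GRCh38) had 15302, 14646 and 14340.4 CPM in JVM2-CTRL and 7324, 5764 and 7131 CPM in JVM2-2B17, the largest loss in mean CPM of any gene tested (log2 fold change -1.13, SE 0.076, adjusted p = 3.3e-07). The lambda variable gene IGLV2-14 had 4381, 4139.8 and 4004 CPM in JVM2-CTRL and 2062, 1917 and 1941 CPM in JVM2-2B17 (log2 fold change -1.08, SE 0.052, adjusted p = 1.6e-08). The lambda constant gene IGLC2 had 3947, 3507 and 3217 CPM in JVM2-CTRL and 2221, 1893 and 2068 CPM in JVM2-2B17 (log2 fold change -0.79, SE 0.076, adjusted p = 8.4e-06). All immunoglobulin genes together took 2.23% to 2.42% of counts in JVM2-CTRL and 1.02% to 1.21% in JVM2-2B17. From RNA of whole cultures, fewer cells of a kind and less RNA per cell cannot be told apart. The genes IGHD, IGKC, IGLL5 and IGHV3-20 were named after their values were seen. IGHD, the IgD heavy chain that is spliced from the same precursor as IGHM, rose with 194, 185 and 179.9 CPM in JVM2-CTRL and 405, 324 and 402 CPM in JVM2-2B17 (log2 fold change 1.02, SE 0.081, adjusted p = 1.5e-06). The kappa constant gene IGKC had 90.2, 84.8 and 82.5 CPM in JVM2-CTRL and 95.4, 68.5 and 84.2 CPM in JVM2-2B17, with overlapping arms (log2 fold change -0.05, SE 0.099, adjusted p = 0.75). IGLL5, which lies by the lambda constant genes, fell with 17.8, 17.8 and 15.7 CPM in JVM2-CTRL and 2.63, 2.70 and 4.41 CPM in JVM2-2B17 (log2 fold change -2.41, SE 0.17, adjusted p = 4.8e-07). The arms used the same leading variable genes: IGHV3-20 gave 89.6% to 94.5% of the heavy variable counts and IGLV2-14 at least 99.9% of the lambda variable counts in every library. IGHV3-20 itself fell with 355, 349.6 and 349 CPM in JVM2-CTRL and 156, 124 and 147 CPM in JVM2-2B17 (log2 fold change -1.302, SE 0.077, adjusted p = 1.1e-07).

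Most genes of the plasma-cell programme, which holds transcription factors, secretory proteins and surface proteins of antibody-secreting cells, were lower in JVM2-2B17. Of its 12 genes, all tested, 8 fell (66.7%, against 15.3% of all genes), 0 rose and the median log2 fold change was -0.47. Not past the threshold were IRF4 (log2 fold change 0.05), CD27 (0.13), TNFRSF17 (-0.08) and SLAMF7 (-0.14), named after their values were seen. PRDM1, the repressor BLIMP-1 that drives plasma-cell differentiation, had 94.7, 91.4 and 95.6 CPM in JVM2-CTRL and 32.1, 26.9 and 34.96 CPM in JVM2-2B17 (log2 fold change -1.58, SE 0.085, adjusted p = 4.5e-08). CD38, an ectoenzyme of plasma cells and activated B cells, had 68.9, 65.02 and 67.8 CPM in JVM2-CTRL and 23.6, 18.9 and 23.2 CPM in JVM2-2B17 (log2 fold change -1.61, SE 0.087, adjusted p = 4.6e-08). In both genes the arms were far apart, with each JVM2-2B17 library at less than 40% of the lowest JVM2-CTRL value. Genes of the unfolded protein response, which expands the folding capacity of the endoplasmic reticulum, moved the same way: 11 of 14 fell (78.6%) and 1 rose, with a median of -0.47. HSPA5, the chaperone BiP, had 471, 398 and 494 CPM in JVM2-CTRL and 276, 283 and 282 CPM in JVM2-2B17 (log2 fold change -0.70, SE 0.074, adjusted p = 1.9e-05). MANF, a secreted stress-induced factor, had 103, 97.4 and 96.2 CPM in JVM2-CTRL and 54.1, 52.02 and 55.5 CPM in JVM2-2B17 (log2 fold change -0.87, SE 0.062, adjusted p = 5.0e-07). The 1 that rose was HERPUD1 (log2 fold change 0.21, SE 0.062, adjusted p = 0.023), a call lost without JVM2-CTRL replicate 2 (adjusted p = 0.14), without JVM2-2B17 replicate 1 (adjusted p = 0.069) and without replicate 3 (adjusted p = 0.060). Genes of the heat shock list, mostly chaperones of the cytosol and their partners, fell in 13 of 18 cases (72.2%) with 1 rise and a median of -0.28. The rise, named after its value was seen, was that of the small heat shock protein gene HSPB1, whose arms overlapped (log2 fold change 0.58). The number of heat shock genes called higher was 0 with DESeq2, when the exact test of edgeR and DESeq2 both had to pass, and without JVM2-CTRL replicate 2 or 3 or JVM2-2B17 replicate 1 or 3. HSPA1A, the inducible HSP70, had 12.6, 14.2 and 12.4 CPM in JVM2-CTRL and 5.44, 7.54 and 7.47 CPM in JVM2-2B17 (log2 fold change -0.95, SE 0.14, adjusted p = 0.00033), although its near-identical copy HSPA1B can share its reads. BAG3, a partner of HSP70, had 17.4, 18 and 18.6 CPM in JVM2-CTRL and 10.9, 9.91 and 11.1 CPM in JVM2-2B17 (log2 fold change -0.76, SE 0.10, adjusted p = 0.00014).

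B-cell identity genes were expressed in every library, with modest changes in either direction. Of the 8 markers of the line, 3 rose, 2 fell and 3 were not past the threshold. MS4A1, which encodes CD20, had 474, 528 and 535 CPM in JVM2-CTRL and 691, 646 and 687 CPM in JVM2-2B17 (log2 fold change 0.40, SE 0.061, adjusted p = 0.00038). CD79A, a signalling chain of the B-cell receptor, had 369, 339.6 and 342 CPM in JVM2-CTRL and 293, 207 and 298 CPM in JVM2-2B17 (log2 fold change -0.39, SE 0.11, adjusted p = 0.018). Its call was lost without JVM2-CTRL replicate 1 (adjusted p = 0.074) or 3 (adjusted p = 0.053). Its partner CD79B had 61.2, 67.4 and 59.1 CPM in JVM2-CTRL and 61.4, 59.6 and 54.5 CPM in JVM2-2B17, not past the threshold (log2 fold change -0.10, SE 0.074, adjusted p = 0.36). Cyclin D1, CCND1, had 431, 415 and 419.5 CPM in JVM2-CTRL and 346, 368 and 351 CPM in JVM2-2B17 (log2 fold change -0.25, SE 0.053, adjusted p = 0.0035). The inhibitory receptor CD22 rose (log2 fold change 0.38, SE 0.12, adjusted p = 0.029) but its arms overlapped, with 59.98, 55.2 and 56.1 CPM in JVM2-CTRL and 77.9, 57.6 and 86.8 CPM in JVM2-2B17. PAX5, the factor that maintains B-cell identity, had 236, 234 and 235 CPM in JVM2-CTRL and 232, 172 and 244 CPM in JVM2-2B17 and was not past the threshold (log2 fold change -0.12, SE 0.10, adjusted p = 0.40), nor was the tetraspanin CD37 (log2 fold change 0.12, SE 0.088, adjusted p = 0.35). In CD22, PAX5 and CD37 the lowest JVM2-2B17 value was that of replicate 2. Without that library CD37 was called (adjusted p = 0.0040). Leaving out any of the other 5 libraries ended the call of CD22 (adjusted p between 0.057 and 0.12). Of 15 B-cell transcription factors tested, 3 rose and 2 fell (20% and 13.3%), with a median of 0.00. The number of B-cell transcription factors called higher was 7 without JVM2-2B17 replicate 2. MEF2C and IRF8 rose, as did SPIB, named after its value was seen (log2 fold change 0.31). MEF2C had 394, 433 and 435 CPM in JVM2-CTRL and 539.6, 544 and 550 CPM in JVM2-2B17 (log2 fold change 0.37, SE 0.056, adjusted p = 0.00033). IRF8, a partner of PU.1, had 66.7, 66.4 and 66.2 CPM in JVM2-CTRL and 82.8, 94.9 and 85.98 CPM in JVM2-2B17 (log2 fold change 0.40, SE 0.066, adjusted p = 0.00062). SPI1, which encodes PU.1, fell (log2 fold change -0.58, SE 0.20, adjusted p = 0.0495), a call lost with DESeq2, among genes with at least 10 counts in every library, without JVM2-CTRL replicate 1, without JVM2-CTRL replicate 2, without JVM2-CTRL replicate 3 or without JVM2-2B17 replicate 2 (adjusted p between 0.054 and 0.15), and so did POU2F2, the octamer factor OCT-2 (log2 fold change -0.45, SE 0.16, adjusted p = 0.048), a call lost with DESeq2, among genes with at least 10 counts in every library, without JVM2-CTRL replicate 1, without JVM2-CTRL replicate 2, without JVM2-CTRL replicate 3 or without JVM2-2B17 replicate 1 (adjusted p between 0.054 and 0.26).

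Genes that carry the signal of the B-cell receptor changed in both directions, with 11 of 42 higher, 14 lower (26.2% and 33.3%) and a median of -0.06. Among Src-family kinases, FYN had 58.3, 58.2 and 55.3 CPM in JVM2-CTRL and 92.4, 90.7 and 93 CPM in JVM2-2B17 (log2 fold change 0.68, SE 0.059, adjusted p = 3.0e-06). BLK had 71.6, 64.2 and 68.7 CPM in JVM2-CTRL and 112, 105 and 109 CPM in JVM2-2B17 (log2 fold change 0.67, SE 0.063, adjusted p = 6.0e-06). The complement receptor CR2, a co-receptor that lowers the threshold of activation, had 16.04, 13.8 and 16.2 CPM in JVM2-CTRL and 0.272, 0.450 and 0.226 CPM in JVM2-2B17 (log2 fold change -5.56, SE 0.24, adjusted p = 5.5e-09). GAB2, an adaptor that recruits phosphoinositide 3-kinase, had 35.4, 34.6 and 34.3 CPM in JVM2-CTRL and 13.6, 11.3 and 13.8 CPM in JVM2-2B17 (log2 fold change -1.43, SE 0.096, adjusted p = 3.6e-07). Of the other Src-family kinases on the list, LCK fell (log2 fold change -1.15, SE 0.095, adjusted p = 2.3e-06) and LYN rose (log2 fold change 0.22, SE 0.058, adjusted p = 0.013), both named after their values were seen. FYN and BLK were higher in every JVM2-2B17 library, and CR2 and GAB2 lower in every one, a separation that was a condition for naming these genes. The number of receptor signalling genes called higher was 3 without JVM2-CTRL replicate 2, 4 without JVM2-CTRL replicate 3, 5 without JVM2-2B17 replicate 3 and 6 without JVM2-CTRL replicate 1 or without JVM2-2B17 replicate 1.

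Of 22 costimulatory and checkpoint genes tested, 6 rose and 4 fell (27.3% and 18.2%). The number of costimulatory genes called lower was 2 without JVM2-CTRL replicate 1, without JVM2-CTRL replicate 2 or without JVM2-CTRL replicate 3. TNFSF4, the OX40 ligand, had 14.3, 14.1 and 15.3 CPM in JVM2-CTRL and 25.2, 31.3 and 24.8 CPM in JVM2-2B17 (log2 fold change 0.89, SE 0.11, adjusted p = 7.0e-05). The activation marker CD69 had 28.7, 30.97 and 31.9 CPM in JVM2-CTRL and 36.5, 49.8 and 41.9 CPM in JVM2-2B17 (log2 fold change 0.48, SE 0.11, adjusted p = 0.0051). The dendritic and B-cell marker CD83 had 60.1, 55.1 and 57.2 CPM in JVM2-CTRL and 41.1, 42.4 and 37.2 CPM in JVM2-2B17 (log2 fold change -0.51, SE 0.074, adjusted p = 0.00024). The adhesion ligand ICAM1 fell (log2 fold change -0.31, SE 0.099, adjusted p = 0.034), a call lost when any JVM2-CTRL replicate was left out (adjusted p between 0.087 and 0.11). NF-kB genes were split, with 5 of 28 higher and 5 lower (17.9% and 17.9%), shares near those of all genes. The number of NF-kB genes called higher was 3 without JVM2-CTRL replicate 3 or without JVM2-2B17 replicate 3. LTB, a membrane lymphotoxin, had 1.59, 0.933 and 1.38 CPM in JVM2-CTRL and 3.99, 5.97 and 5.77 CPM in JVM2-2B17 (log2 fold change 1.99, SE 0.26, adjusted p = 0.00012). LTA, the gene of another lymphotoxin, had 73.9, 72.6 and 67.9 CPM in JVM2-CTRL and 49.9, 32.9 and 46.4 CPM in JVM2-2B17 (log2 fold change -0.73, SE 0.12, adjusted p = 0.00058). BIRC3, an inhibitor of cell death, had 215, 252 and 239 CPM in JVM2-CTRL and 279, 340.5 and 301 CPM in JVM2-2B17 (log2 fold change 0.38, SE 0.080, adjusted p = 0.0034). NFKBIZ, an atypical inhibitor of the pathway, had 61.7, 66.2 and 67.7 CPM in JVM2-CTRL and 33.1, 32.1 and 35.5 CPM in JVM2-2B17 (log2 fold change -0.96, SE 0.073, adjusted p = 1.0e-06).

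Genes of antigen presentation moved apart by class. MHC class II molecules display peptides from endosomes on B cells, and of the 21 genes of that list 12 rose (57.1%, against 14.1% of all genes) and 1 fell, the median log2 fold change being 0.36. HLA-DRA, the alpha chain shared by HLA-DR molecules, had 1436, 1385 and 1379 CPM in JVM2-CTRL and 2348, 2160.2 and 2169 CPM in JVM2-2B17 (log2 fold change 0.67, SE 0.052, adjusted p = 1.1e-06). HLA-DMB, of the HLA-DM editor that loads peptides, had 82.3, 78.1 and 73.97 CPM in JVM2-CTRL and 151, 143 and 141 CPM in JVM2-2B17 (log2 fold change 0.89, SE 0.063, adjusted p = 4.9e-07). In both genes the values within an arm were close. The arms did not overlap, which was a condition for naming these genes. The 1 that fell was LGMN, a lysosomal protease, with 139, 136 and 134 CPM in JVM2-CTRL and 87.9, 97.2 and 86.5 CPM in JVM2-2B17 (log2 fold change -0.59, SE 0.063, adjusted p = 1.8e-05). Of 22 class I genes, which present peptides of the cytosol, 13 fell (59.1%), 0 rose and the median was -0.21. TAP1, of the peptide transporter, had 357, 345 and 339 CPM in JVM2-CTRL and 257, 239 and 242 CPM in JVM2-2B17 (log2 fold change -0.50, SE 0.055, adjusted p = 2.6e-05). CALR, the chaperone calreticulin, had 1169.6, 1101 and 1105 CPM in JVM2-CTRL and 848, 743 and 814 CPM in JVM2-2B17 (log2 fold change -0.49, SE 0.060, adjusted p = 5.9e-05). The number of class I genes called lower was 7 without JVM2-CTRL replicate 3 and 8 without JVM2-CTRL replicate 1 or without JVM2-CTRL replicate 2. Many HLA genes are polymorphic and some are close copies of each other, so the split of reads among such genes is uncertain.

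Transcription of class II genes relies on a promoter module whose last element, the Y box, binds the factor NF-Y. The sequence ATTGG, searched on both strands in the 300 bases from 250 before to 50 after each RefSeq start site (GRCh38.p14), was found for 9 of 10 class II genes that rose and had a promoter sequence, 90%, and for 43.9% of all tested genes with one. Of all tested class II genes with a promoter sequence, whether or not they rose, 14 of 17 (82.4%) held the sequence ATTGG. Whether a match goes with the rise was not tested. HLA-DRA was not matched to a promoter sequence. Shown are the stretches of the 3 called members with the largest changes among those with a promoter sequence that holds it upstream of the start, with the match in capitals.
HLA-DMB, chr6:32941031-32941065, minus strand: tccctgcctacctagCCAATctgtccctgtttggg
HLA-DOA, chr6:33009639-33009673, minus strand: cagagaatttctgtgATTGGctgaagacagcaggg
HLA-DRB5, chr6:32530358-32530392, minus strand: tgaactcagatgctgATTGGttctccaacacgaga
The log2 fold changes of these genes were 0.89, 0.67 and 0.50. A match of letters is a description and no measure of binding.

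Interferon response genes had the highest share of falls of any list with tested genes. Type I interferon induces these antiviral genes through factors that include STAT2 and IRF9. Of its 48 genes tested, 40 fell (83.3%, against 15.3% of all genes), 1 rose and 7 were not past the threshold, the median log2 fold change being -0.65, and 12 differed by more than 2-fold. IFIT1, which binds foreign RNA ends (ENSG00000185745, chromosome 10 from 89392546 to 89406487 of GRCh38), had 57.9, 58.9 and 61.4 CPM in JVM2-CTRL and 6.25, 7.21 and 6.68 CPM in JVM2-2B17 (log2 fold change -3.15, SE 0.092, adjusted p = 2.4e-10). IFI27, at a lower level, had 4.28, 4.01 and 3.61 CPM in JVM2-CTRL and 0.0906, 0 and 0.339 CPM in JVM2-2B17, a ratio of 28.6 (95% exact counting interval 10.9 to 107, adjusted p = 6.4e-06). CMPK2, a mitochondrial nucleotide kinase, had 2.79, 4.20 and 3.82 CPM in JVM2-CTRL and 0.181, 0.338 and 0.226 CPM in JVM2-2B17, a ratio of 14.8 (95% exact counting interval 6.96 to 37.8, adjusted p = 8.5e-06). In each of these every JVM2-CTRL library lay above every JVM2-2B17 library, as the rule for naming them required. The 1 that rose was MX2, a restriction factor, with 85.1, 80.2 and 79.5 CPM in JVM2-CTRL and 94.1, 100.3 and 98.4 CPM in JVM2-2B17 (log2 fold change 0.26, SE 0.060, adjusted p = 0.0063). The number of interferon response genes called higher was 3 with trends over length and GC content removed. The count of falls lay between 38 and 41 when each replicate was left out. The sources used here describe no addition of interferon.

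Interferon-responsive promoters hold the interferon-stimulated response element, on which STAT and IRF factors bind. The letters GAAANNGAAA, searched on both strands in the same promoter windows, were present for 24 of 33 genes of the list that fell and had a promoter sequence (72.7%). Among all tested genes of the list with a promoter sequence, whether or not they fell, it was 26 of 39 (66.7%). Among all tested genes with a promoter sequence the share was 4.34%. Whether a match goes with the fall was not tested. The stretches of the 3 genes that changed most among those with a match upstream of the start are shown, with the matches in capitals. Capitals that begin with TTTC are the same element read on the opposite strand.
IFI27, chr14:94110613-94110665, plus strand: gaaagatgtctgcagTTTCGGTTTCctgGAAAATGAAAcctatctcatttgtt
IFIT1, chr10:89392492-89392544, plus strand: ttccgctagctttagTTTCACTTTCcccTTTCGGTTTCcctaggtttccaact
DDX60, chr4:168318781-168318855, minus strand: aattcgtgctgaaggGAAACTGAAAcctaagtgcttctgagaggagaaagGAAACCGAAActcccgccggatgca
DDX60, a helicase of antiviral sensing, had a log2 fold change of -2.51. Each of these promoters holds 2 matches within the stretch shown, all ending before the start site.

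**Figure D3:**
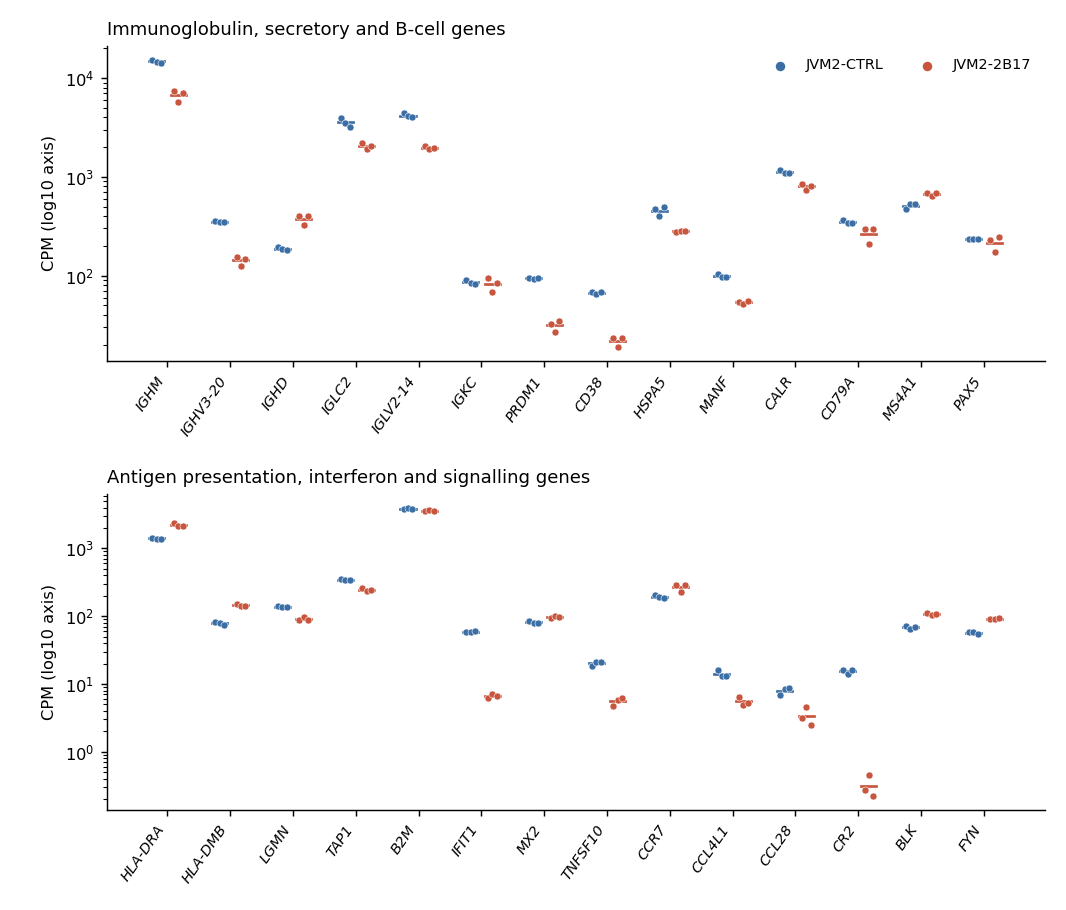
CPM on a log10 axis of genes named in the text, 1 point for each library and a bar at the mean of each arm (JVM2-CTRL blue, JVM2-2B17 red). The upper panel shows immunoglobulin, secretory and B-cell genes, with IGHM, PRDM1 and CD38 lower and IGHD higher in JVM2-2B17. The lower panel shows genes of antigen presentation, interferon response and signalling, with HLA-DRA and HLA-DMB higher and IFIT1 and CR2 lower.

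Chemokines guide lymphocytes through tissue, and most of their genes were lower. Of 9 ligand genes tested 7 fell and 0 rose, with a median of -0.77, and of 11 receptor genes 6 fell and 1 rose, with a median of -0.90 (-0.19 among genes with at least 10 counts in every library). CCL28, a mucosal chemokine, had 6.97, 8.40 and 8.60 CPM in JVM2-CTRL and 3.17, 4.50 and 2.49 CPM in JVM2-2B17 (log2 fold change -1.24, SE 0.20, adjusted p = 0.00053). CCL4L1, a near-identical copy of CCL4 whose reads may be split between the copies, had 16.04, 12.97 and 13.3 CPM in JVM2-CTRL and 6.44, 4.95 and 5.20 CPM in JVM2-2B17 (log2 fold change -1.33, SE 0.15, adjusted p = 2.5e-05). The receptor gene CCR2 had 5.78, 4.29 and 7.004 CPM in JVM2-CTRL and 0.272, 0 and 0.113 CPM in JVM2-2B17, a ratio of 40.5 (95% exact counting interval 15.5 to 150.3, adjusted p = 3.5e-06), and CXCR2 had 3.49, 3.54 and 3.08 CPM in JVM2-CTRL and 0.544, 0.563 and 0.566 CPM in JVM2-2B17 (log2 fold change -2.57, SE 0.27, adjusted p = 1.9e-05). The receptor that rose was CCR7, which directs B cells into lymph nodes, with 205, 193 and 184 CPM in JVM2-CTRL and 289.8, 224 and 289 CPM in JVM2-2B17 (log2 fold change 0.46, SE 0.091, adjusted p = 0.0021). Among CCR7 values JVM2-2B17 replicate 2 was the lowest of its arm. The number of chemokine receptor genes called lower was 2 among genes with at least 10 counts in every library.

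Of 39 adhesion and positioning genes tested, 13 rose and 11 fell (33.3% and 28.2%), with a median of 0.10 (0.17 without JVM2-CTRL replicate 1). ITGB5, a subunit of vitronectin-binding integrin, had 94.96, 88.4 and 91.7 CPM in JVM2-CTRL and 279, 289 and 266 CPM in JVM2-2B17 (log2 fold change 1.60, SE 0.061, adjusted p = 1.7e-09). MCAM, an endothelial and melanoma adhesion molecule, had 1.69, 1.31 and 0.531 CPM in JVM2-CTRL and 3.35, 3.60 and 3.62 CPM in JVM2-2B17 (log2 fold change 1.55, SE 0.30, adjusted p = 0.0019). ITGA4, the alpha chain of the VLA-4 integrin and a prognostic marker in chronic lymphocytic leukemia, had 219, 239 and 239.7 CPM in JVM2-CTRL and 123, 134 and 122 CPM in JVM2-2B17 (log2 fold change -0.88, SE 0.064, adjusted p = 6.7e-07). The 3 libraries of each arm lay together in ITGA4 and ITGB5. The number of adhesion genes called higher was 8 among genes with at least 10 counts in every library. The number of adhesion genes called lower was 7 without JVM2-CTRL replicate 2 or without JVM2-CTRL replicate 3. Actin and membrane-skeleton genes fell more often than they rose, 17 of 37 (45.9%) against 5, with a median of -0.19 (-0.11 without JVM2-2B17 replicate 2). LIMA1, an actin-binding LIM protein, had 112, 113 and 117 CPM in JVM2-CTRL and 61.5, 54.5 and 65.8 CPM in JVM2-2B17 (log2 fold change -0.91, SE 0.071, adjusted p = 1.3e-06). The calcium-binding S100A11 had 60.9, 53.9 and 58.1 CPM in JVM2-CTRL and 40.8, 24.3 and 37.4 CPM in JVM2-2B17 (log2 fold change -0.74, SE 0.14, adjusted p = 0.0016). ACTB itself had 13099, 12492 and 12556 CPM in JVM2-CTRL and 11232, 9239 and 11318 CPM in JVM2-2B17 (log2 fold change -0.26, SE 0.068, adjusted p = 0.011), a call lost without JVM2-CTRL replicate 1 (adjusted p = 0.058). TMSB4X, which sequesters actin monomers, rose with 3174, 3114 and 3069 CPM in JVM2-CTRL and 4555, 5563 and 4261 CPM in JVM2-2B17 (log2 fold change 0.62, SE 0.080, adjusted p = 9.3e-05).

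Few genes of the prostanoid pathway, in which the enzyme's substrates act, were tested. Of 12 synthesis genes 6 were tested, of which 1 fell (16.7%, near the 15.3% of all genes) and 0 rose, with a median of -0.37 (-0.24 without JVM2-2B17 replicate 2). The number of prostanoid synthesis genes called lower was 3 with trends over length and GC content removed or without JVM2-2B17 replicate 3. CBR1, a carbonyl reductase that converts prostaglandin E2 to F2-alpha, had 23.3, 22.1 and 22.9 CPM in JVM2-CTRL and 12.96, 14.6 and 12.6 CPM in JVM2-2B17 (log2 fold change -0.77, SE 0.098, adjusted p = 8.5e-05), lower in every JVM2-2B17 library. The cyclooxygenase gene PTGS1 had 5.38, 5.22 and 5.09 CPM in JVM2-CTRL and 4.44, 2.81 and 4.41 CPM in JVM2-2B17 (log2 fold change -0.42, SE 0.19, adjusted p = 0.12). The synthase gene PTGES2 had 53.01, 55.2 and 54.5 CPM in JVM2-CTRL and 62.3, 57.2 and 59.96 CPM in JVM2-2B17 (log2 fold change 0.14, SE 0.065, adjusted p = 0.12). PTGES3 had 488, 572 and 584 CPM in JVM2-CTRL and 508, 543 and 527 CPM in JVM2-2B17 (log2 fold change -0.06, SE 0.070, adjusted p = 0.57). None of these 3 was past the threshold. PTGES2 was called higher without JVM2-2B17 replicate 2 (adjusted p = 0.030). TBXAS1, the thromboxane synthase, lay at the threshold (log2 fold change -0.81, SE 0.29, adjusted p = 0.0504). It had 4.68, 4.85 and 3.61 CPM in JVM2-CTRL and 3.08, 1.13 and 3.17 CPM in JVM2-2B17 and was called lower with RLE scaling, with library size only, with no filter on low counts, with trends over length and GC content removed, without JVM2-2B17 replicate 1 or without JVM2-2B17 replicate 3 (adjusted p between 0.037 and 0.0498). FAM213B, a prostaglandin F synthase, was not past it (log2 fold change -0.32, SE 0.13, adjusted p = 0.078) but was called lower with trends over length and GC content removed or without JVM2-2B17 replicate 3 (adjusted p between 0.033 and 0.036). The inducible cyclooxygenase PTGS2 had 0, 3 and 1 counts in JVM2-CTRL and 4, 3 and 7 in JVM2-2B17, and PTGES 0, 2 and 0 counts in JVM2-CTRL and 5, 3 and 11 in JVM2-2B17, too few to be tested, as for AKR1C3 with 10, 11 and 13 counts in JVM2-CTRL and 9, 8 and 6 in JVM2-2B17.

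Of 9 prostanoid receptor genes, 3 were tested. PTGER2, which encodes EP2, had 8.77, 11.6 and 10.4 CPM in JVM2-CTRL and 6.44, 7.09 and 6.22 CPM in JVM2-2B17 and fell (log2 fold change -0.64, SE 0.14, adjusted p = 0.0052). PTGER4, which encodes EP4, had 2.29, 1.77 and 1.80 CPM in JVM2-CTRL and 2.81, 1.80 and 2.38 CPM in JVM2-2B17, with overlapping arms (log2 fold change 0.27, SE 0.25, adjusted p = 0.46). The prostacyclin receptor PTGIR had 6.28, 5.88 and 5.62 CPM in JVM2-CTRL and 3.81, 5.40 and 4.86 CPM in JVM2-2B17, not past the threshold (log2 fold change -0.35, SE 0.17, adjusted p = 0.14). Scaled by exonic length, PTGER2 had 4.16 ± 0.570 CPM per kilobase (SD, n = 3) in JVM2-CTRL and 2.67 ± 0.184 in JVM2-2B17, and PTGER4 had 0.552 ± 0.0821 CPM per kilobase (SD, n = 3) in JVM2-CTRL and 0.657 ± 0.143 in JVM2-2B17. Among inactivating reductases ZADH2 rose with 54.8, 60.3 and 62.1 CPM in JVM2-CTRL and 71.6, 75.5 and 64.3 CPM in JVM2-2B17 (log2 fold change 0.26, SE 0.077, adjusted p = 0.025), a call lost without JVM2-CTRL replicate 1 (adjusted p = 0.11), without JVM2-CTRL replicate 2 (adjusted p = 0.070) or without JVM2-2B17 replicate 1 (adjusted p = 0.073). PTGR2 had 1.39, 0.653 and 2.12 CPM in JVM2-CTRL and 0.997, 1.69 and 1.13 CPM in JVM2-2B17, which overlapped (log2 fold change -0.12, SE 0.40, adjusted p = 0.86), and PTGR1 was not tested, with at most 6 counts in a library. The transporters ABCC4, which exports prostaglandins (log2 fold change 0.07, SE 0.069, adjusted p = 0.48), and SLCO4A1 (log2 fold change -0.29, SE 0.11, adjusted p = 0.078) were not past the threshold. SLCO4A1 was called lower with trends over length and GC content removed or without JVM2-2B17 replicate 3 (adjusted p between 0.029 and 0.034).

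Leukotrienes come from the same fatty acid by another route, and there the changes were large. ALOX5, the 5-lipoxygenase that takes the first step (ENSG00000012779, chromosome 10 from 45374176 to 45446119 of GRCh38), had 35.6, 33.8 and 34.5 CPM in JVM2-CTRL and 0.725, 0.563 and 0.679 CPM in JVM2-2B17 (log2 fold change -5.68, SE 0.15, adjusted p = 1.1e-10), below 1 CPM in each JVM2-2B17 library. Its activating protein ALOX5AP moved the other way, with 3.99, 4.01 and 4.67 CPM in JVM2-CTRL and 22.8, 15.7 and 21.4 CPM in JVM2-2B17 (log2 fold change 2.25, SE 0.17, adjusted p = 8.8e-07). LTA4H, the hydrolase that yields leukotriene B4, had 136, 133 and 137 CPM in JVM2-CTRL and 174, 165 and 164 CPM in JVM2-2B17 (log2 fold change 0.31, SE 0.056, adjusted p = 0.0014). The receptor gene CYSLTR2 fell with 9.17, 8.49 and 8.70 CPM in JVM2-CTRL and 1.09, 1.69 and 1.58 CPM in JVM2-2B17 (log2 fold change -2.61, SE 0.19, adjusted p = 7.9e-07). CYSLTR1 had 15.2, 18.3 and 16.6 CPM in JVM2-CTRL and 15.2, 16.3 and 16.3 CPM in JVM2-2B17, with overlapping arms (log2 fold change -0.07, SE 0.10, adjusted p = 0.65). The leukotriene B4 receptor genes LTB4R (log2 fold change -0.47, SE 0.21, adjusted p = 0.11) and LTB4R2 (log2 fold change -0.09, SE 0.33, adjusted p = 0.87) were not past the threshold. ALOX15B had at most 6 counts in a library and was not tested. Of the 7 genes tested, 2 rose and 2 fell (28.6% and 28.6%).

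Upstream, 3 of 14 genes of arachidonic acid supply rose and 4 fell (21.4% and 28.6%). PLA2G4C, a phospholipase that frees fatty acids from membranes, had 3.89, 4.10 and 2.87 CPM in JVM2-CTRL and 5.98, 5.74 and 7.01 CPM in JVM2-2B17 (log2 fold change 0.77, SE 0.18, adjusted p = 0.0068). The elongase ELOVL5 had 113, 122 and 128 CPM in JVM2-CTRL and 153, 145 and 163 CPM in JVM2-2B17 (log2 fold change 0.34, SE 0.067, adjusted p = 0.0021). The desaturase FADS2 had 347, 332 and 334 CPM in JVM2-CTRL and 246, 216 and 250.7 CPM in JVM2-2B17 (log2 fold change -0.51, SE 0.064, adjusted p = 7.9e-05). The fatty acid carrier FABP5 had 57.2, 50.3 and 57.9 CPM in JVM2-CTRL and 39.2, 40.2 and 42.4 CPM in JVM2-2B17 (log2 fold change -0.44, SE 0.077, adjusted p = 0.00099). Downstream of EP2 and EP4, 2 of 21 genes of cyclic AMP signalling rose and 4 fell (9.52% and 19.05%), with a median of -0.01. The number of cyclic AMP genes called lower was 1 without JVM2-CTRL replicate 3 and 2 with DESeq2, when the exact test of edgeR and DESeq2 both had to pass, without JVM2-CTRL replicate 2, without JVM2-2B17 replicate 1 or without JVM2-2B17 replicate 3. The adenylyl cyclase ADCY9 had 1.20, 1.96 and 1.27 CPM in JVM2-CTRL and 5.26, 3.72 and 3.28 CPM in JVM2-2B17 (log2 fold change 1.47, SE 0.27, adjusted p = 0.0015). The phosphodiesterase PDE4B, which degrades cyclic AMP, had 29.1, 34.1 and 26.4 CPM in JVM2-CTRL and 19.8, 18.01 and 18.3 CPM in JVM2-2B17 (log2 fold change -0.67, SE 0.11, adjusted p = 0.00049). PDE4D fell (log2 fold change -0.30, SE 0.080, adjusted p = 0.015) and PDE7A rose (log2 fold change 0.23, SE 0.063, adjusted p = 0.017). The call of PDE4D was lost without JVM2-CTRL replicate 2 (adjusted p = 0.086) or 3 (adjusted p = 0.058) or without JVM2-2B17 replicate 1 (adjusted p = 0.073), and that of PDE7A without any JVM2-CTRL replicate (adjusted p between 0.053 and 0.070).

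**Figure D4:**
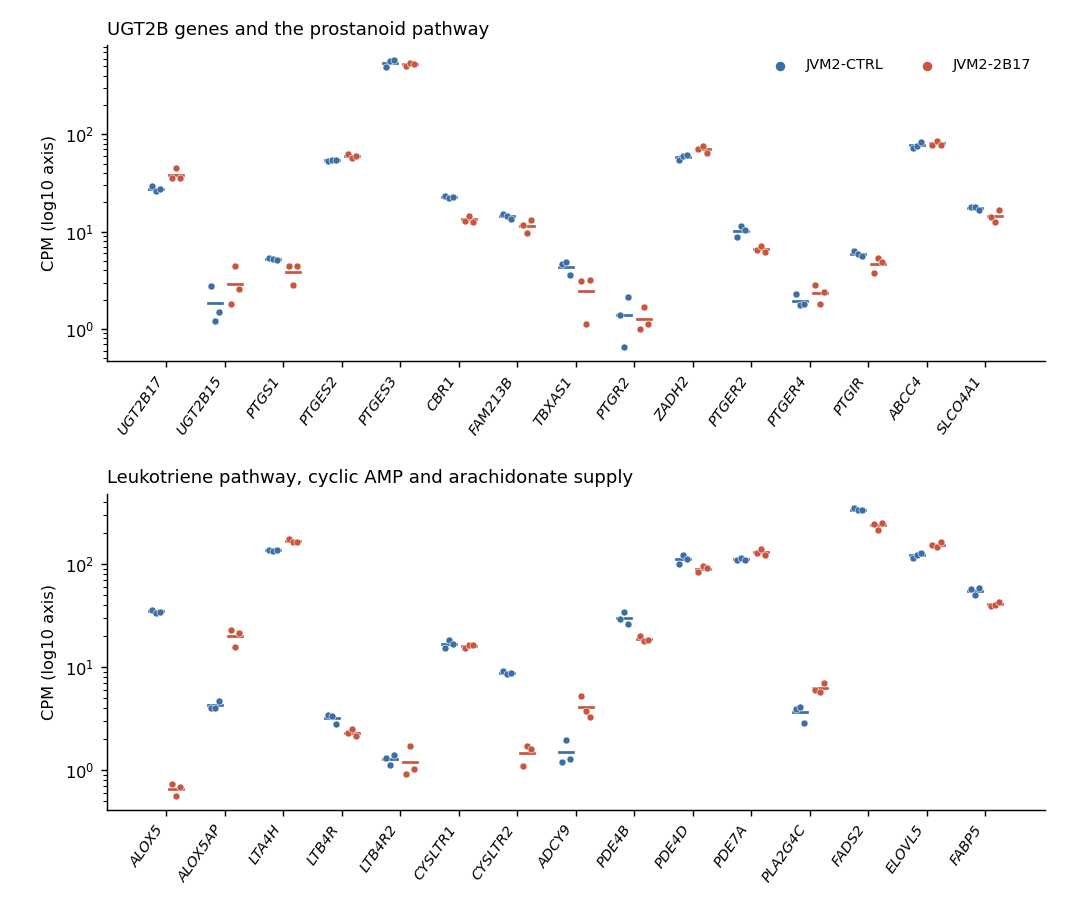
CPM on a log10 axis of UGT2B and prostanoid genes (upper panel) and of leukotriene, cyclic AMP and arachidonate genes (lower panel), 1 point for each library and a bar at the mean of each arm (JVM2-CTRL blue, JVM2-2B17 red). UGT2B17 and ALOX5AP are higher in JVM2-2B17, and CBR1, PTGER2, ALOX5 and CYSLTR2 are lower, each without overlap, while PTGES3, PTGER4 and CYSLTR1 overlap between arms.

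Genes of sterol and fatty acid synthesis, which are driven together by SREBP factors when cell sterol is low, fell more often than they rose. Of 21 cholesterol synthesis enzymes 10 fell (47.6%) and 1 rose, the median log2 fold change being -0.24 (-0.12 without JVM2-2B17 replicate 3). DHCR7, which takes the last step to cholesterol, had 53.5, 54.8 and 56.99 CPM in JVM2-CTRL and 40.97, 34.1 and 37.1 CPM in JVM2-2B17 (log2 fold change -0.56, SE 0.079, adjusted p = 0.00022). MVD, of the mevalonate part, had 46.7, 44.5 and 46.2 CPM in JVM2-CTRL and 34.2, 33.3 and 33.1 CPM in JVM2-2B17 (log2 fold change -0.45, SE 0.070, adjusted p = 0.00043). The 1 that rose, TM7SF2 (log2 fold change 0.37, SE 0.12, adjusted p = 0.037), lost its call with DESeq2 (adjusted p = 0.10) and when any library other than JVM2-2B17 replicate 2 was left out (adjusted p between 0.066 and 0.14). Of 13 genes of sterol control, 2 rose and 6 fell (15.4% and 46.2%). The sterol sensor INSIG1 had 162, 164 and 165 CPM in JVM2-CTRL and 97.2, 116 and 97.9 CPM in JVM2-2B17 (log2 fold change -0.66, SE 0.072, adjusted p = 2.2e-05). The efflux transporter ABCG1, a target of LXR, rose with 11.8, 12.9 and 10.5 CPM in JVM2-CTRL and 29.9, 30.96 and 26.1 CPM in JVM2-2B17 (log2 fold change 1.305, SE 0.11, adjusted p = 2.2e-06). MYLIP, a ubiquitin ligase and another LXR target, also rose (log2 fold change 0.42, SE 0.12, adjusted p = 0.018), a call lost with DESeq2 (adjusted p = 0.052), without JVM2-CTRL replicate 1 (adjusted p = 0.051) or 3 (adjusted p = 0.073) or without JVM2-2B17 replicate 1 (adjusted p = 0.054). The arms did not overlap in any of these 3 sterol control genes, which was a condition for naming them. The letters TCACNCCAC of a sterol response element were found in 0 of 16 cholesterol synthesis genes with a promoter sequence, in 1 of 11 sterol control genes with one, which was among those that fell, and in 1.58% of all tested genes with one. A window without a match says only that these letters are not in it.

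The called genes of fatty acid oxidation were higher, and those of fatty acid synthesis went both ways. Of 10 synthesis genes tested, 2 rose and 5 fell (20% and 50%). FASN, the fatty acid synthase, had 241, 232 and 239 CPM in JVM2-CTRL and 136, 104 and 138 CPM in JVM2-2B17 (log2 fold change -0.91, SE 0.092, adjusted p = 1.2e-05). MID1IP1, which activates acetyl-CoA carboxylase, had 74.7, 73.97 and 77.4 CPM in JVM2-CTRL and 51.3, 53.3 and 51.1 CPM in JVM2-2B17 (log2 fold change -0.54, SE 0.061, adjusted p = 3.4e-05). Both fell. ACACB, the carboxylase of the mitochondrial surface, rose with 8.37, 7.65 and 8.38 CPM in JVM2-CTRL and 12.6, 11.7 and 13.8 CPM in JVM2-2B17 (log2 fold change 0.64, SE 0.12, adjusted p = 0.0015). ELOVL6, an elongase, rose as well (log2 fold change 0.31, SE 0.076, adjusted p = 0.0095). Of 19 oxidation genes 8 rose (42.1%, against 14.1% of all genes) and 0 fell, with a median of 0.17. PHYH, of the peroxisomal oxidation of branched chains, had 5.88, 5.41 and 5.41 CPM in JVM2-CTRL and 10.9, 10.6 and 8.60 CPM in JVM2-2B17 (log2 fold change 0.85, SE 0.14, adjusted p = 0.00071). ECI1, a mitochondrial isomerase, had 29.1, 28.5 and 25.7 CPM in JVM2-CTRL and 35.2, 38.1 and 32.02 CPM in JVM2-2B17 (log2 fold change 0.34, SE 0.090, adjusted p = 0.014), a call lost without JVM2-CTRL replicate 3 (adjusted p = 0.073). The number of oxidation genes called higher was 4 without JVM2-CTRL replicate 2, without JVM2-CTRL replicate 3 or without JVM2-2B17 replicate 1.

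Ribosomal protein genes rose together. They share a control of transcription and translation and make up a large part of the messages of growing cells. Of the 85 genes of the list, which by its symbol rule includes the paralogs and fusions of ribosomal proteins, 79 rose (92.9%, against 14.1% of all genes) and 0 fell, the median log2 fold change being 0.41. RPS18 had 1399, 1347 and 1308 CPM in JVM2-CTRL and 2292, 2531 and 2032 CPM in JVM2-2B17 (log2 fold change 0.76, SE 0.071, adjusted p = 6.4e-06). RPS3A had 1269.9, 1202 and 1212 CPM in JVM2-CTRL and 1968, 2217 and 1735 CPM in JVM2-2B17 (log2 fold change 0.68, SE 0.076, adjusted p = 2.7e-05). RPL13A had 2499, 2326 and 2305 CPM in JVM2-CTRL and 3505, 3554 and 3281 CPM in JVM2-2B17 (log2 fold change 0.54, SE 0.053, adjusted p = 9.3e-06). RPS6, a target of the mTOR pathway, was among the 5 largest rises in CPM (log2 fold change 0.59, SE 0.062, adjusted p = 1.7e-05). The list took 7.24% to 7.61% of counts in JVM2-CTRL and 9.45% to 10.1% in JVM2-2B17. Processed pseudogenes can share reads with these genes. Transcripts of short genes also tended upward: the median log2 fold change was 0.05 in the 20% of genes with the shortest exonic length and -0.03 in the 20% with the longest. With trends over length and GC content removed from each library, 79 of the 85 were called higher. Exonic length here counts the exons of all transcripts of a gene. Its median was 3188 bases for the list and 5133 for all genes tested. An effect of the length of the transcripts themselves was not tested.

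Of 50 translation factors tested, 16 rose and 4 fell (32% and 8%). The number of translation factors called lower was 2 without JVM2-CTRL replicate 3. EEF1A1, the elongation factor that brings tRNA to the ribosome, had 10513, 10257 and 10079.6 CPM in JVM2-CTRL and 12294, 13068 and 11483 CPM in JVM2-2B17 (log2 fold change 0.26, SE 0.050, adjusted p = 0.0022), and the initiation factor genes EIF3E (log2 fold change 0.47, SE 0.060, adjusted p = 8.5e-05) and EIF2S3 (log2 fold change 0.45, SE 0.057, adjusted p = 8.5e-05) rose. The scaffold genes EIF4G1 (log2 fold change -0.46, SE 0.053, adjusted p = 3.5e-05) and EIF4G3 (log2 fold change -0.49, SE 0.090, adjusted p = 0.0014) fell. Host genes of snoRNAs, which often share the promoter type of ribosomal protein genes, rose in 7 of 20 cases and fell in 2 (35% and 10%). The number of snoRNA host genes called lower was 4 without JVM2-2B17 replicate 2. C6orf48 had 48.8, 43 and 43.5 CPM in JVM2-CTRL and 60.2, 71.9 and 67.3 CPM in JVM2-2B17 (log2 fold change 0.56, SE 0.083, adjusted p = 0.00030). ZFAS1 had 82.8, 74.3 and 75.2 CPM in JVM2-CTRL and 109, 105 and 100.1 CPM in JVM2-2B17 (log2 fold change 0.44, SE 0.065, adjusted p = 0.00030). The host gene SNHG3 fell (log2 fold change -0.23, SE 0.074, adjusted p = 0.035), a call lost with DESeq2, without JVM2-CTRL replicate 2, without JVM2-CTRL replicate 3, without JVM2-2B17 replicate 1 or without JVM2-2B17 replicate 3 (adjusted p between 0.055 and 0.15). SNHG17 also fell (log2 fold change -0.40, SE 0.13, adjusted p = 0.039), a call lost with DESeq2, with trends over length and GC content removed, without JVM2-CTRL replicate 1, without JVM2-CTRL replicate 3, without JVM2-2B17 replicate 1 or without JVM2-2B17 replicate 3 (adjusted p between 0.057 and 0.17). The largest rise in CPM of all genes was that of the small nuclear RNA RN7SK, with 30875, 26924 and 27181 CPM in JVM2-CTRL and 38599, 32447 and 35525 CPM in JVM2-2B17 (log2 fold change 0.33, SE 0.066, adjusted p = 0.0026).

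Transcripts of the mitochondrial genome were lower in JVM2-2B17, and most nuclear genes of the same complexes were not past the threshold. Of the 13 mitochondrial protein genes of oxidative phosphorylation 10 fell and 0 rose, the median log2 fold change being -1.01. MT-CO3, of cytochrome oxidase, had 1983, 1745 and 1654 CPM in JVM2-CTRL and 1000, 515 and 1071 CPM in JVM2-2B17 (log2 fold change -1.06, SE 0.20, adjusted p = 0.0015). MT-CYB had 112, 100.5 and 104 CPM in JVM2-CTRL and 60.5, 12.6 and 56.9 CPM in JVM2-2B17 (log2 fold change -1.27, SE 0.33, adjusted p = 0.013). MT-ATP8 had 22.6, 24.4 and 23.7 CPM in JVM2-CTRL and 14.3, 2.03 and 13.4 CPM in JVM2-2B17 (log2 fold change -1.22, SE 0.35, adjusted p = 0.019). JVM2-2B17 replicate 2 was by far the lowest library in each, and the median without it was -0.68. The number of mitochondrial protein genes called lower was 2 with DESeq2 or when the exact test of edgeR and DESeq2 both had to pass, 5 without JVM2-CTRL replicate 1 and 6 without JVM2-CTRL replicate 2 or without JVM2-CTRL replicate 3. With DESeq2 the calls of MT-CYB (adjusted p = 0.17) and MT-ATP8 (adjusted p = 0.28) were lost, and that of MT-ATP8 also when any JVM2-CTRL replicate was left out (adjusted p between 0.052 and 0.066). The mitochondrial ribosomal RNA MT-RNR2, named after its values were seen, had 1475, 628 and 1458 CPM in JVM2-CTRL and 537, 263 and 666 CPM in JVM2-2B17 (log2 fold change -1.28, SE 0.32, adjusted p = 0.0098), with overlapping arms, and its call was lost without JVM2-CTRL replicate 1 (adjusted p = 0.052) or 3 (adjusted p = 0.053). Residual cytosolic ribosomal RNA, RNA28S5, varied within both arms, with 279, 3168 and 1489 CPM in JVM2-CTRL and 1269, 281 and 1569 CPM in JVM2-2B17 (log2 fold change -0.66, SE 0.66, adjusted p = 0.49). What part the depletion of ribosomal RNA or the quality of the RNA has in the mitochondrial values was not tested.

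Of 79 nuclear genes of oxidative phosphorylation 14 rose and 1 fell (17.7% and 1.27%), with a median of 0.09. NDUFA2, of complex I, had 50.9, 49.4 and 45 CPM in JVM2-CTRL and 60.5, 64.4 and 59.3 CPM in JVM2-2B17 (log2 fold change 0.34, SE 0.072, adjusted p = 0.0035). COX7A2L, a factor of supercomplex assembly, had 87.5, 98.6 and 89.8 CPM in JVM2-CTRL and 121, 135 and 110.4 CPM in JVM2-2B17 (log2 fold change 0.41, SE 0.078, adjusted p = 0.0020). ATP5B, the catalytic subunit of ATP synthase, was the 1 that fell (log2 fold change -0.14, SE 0.050, adjusted p = 0.046), a call lost with DESeq2, with RLE scaling, with no filter on low counts, without JVM2-CTRL replicate 1, without JVM2-CTRL replicate 2, without JVM2-CTRL replicate 3, without JVM2-2B17 replicate 1 or without JVM2-2B17 replicate 3 (adjusted p between 0.051 and 0.14). The number of nuclear genes of oxidative phosphorylation called higher was 6 without JVM2-CTRL replicate 3, 7 without JVM2-CTRL replicate 2 and 8 without JVM2-2B17 replicate 1. Genes of the mitochondrial ribosome were mostly not past the threshold, with 5 of 77 higher (6.49%) and 0 lower. MRPL14 rose (log2 fold change 0.30, SE 0.079, adjusted p = 0.013), a call lost without JVM2-CTRL replicate 2 (adjusted p = 0.079). MRPS10 also rose (log2 fold change 0.35, SE 0.097, adjusted p = 0.016), a call lost without JVM2-CTRL replicate 1 or without JVM2-CTRL replicate 3 (adjusted p between 0.059 and 0.071). The number of mitochondrial ribosome genes called higher was 1 without JVM2-CTRL replicate 3, 2 with DESeq2, when the exact test of edgeR and DESeq2 both had to pass, without JVM2-CTRL replicate 2 or without JVM2-2B17 replicate 1, 8 without JVM2-2B17 replicate 2, 9 with trends over length and GC content removed and 10 without JVM2-2B17 replicate 3.

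**Figure D5:**
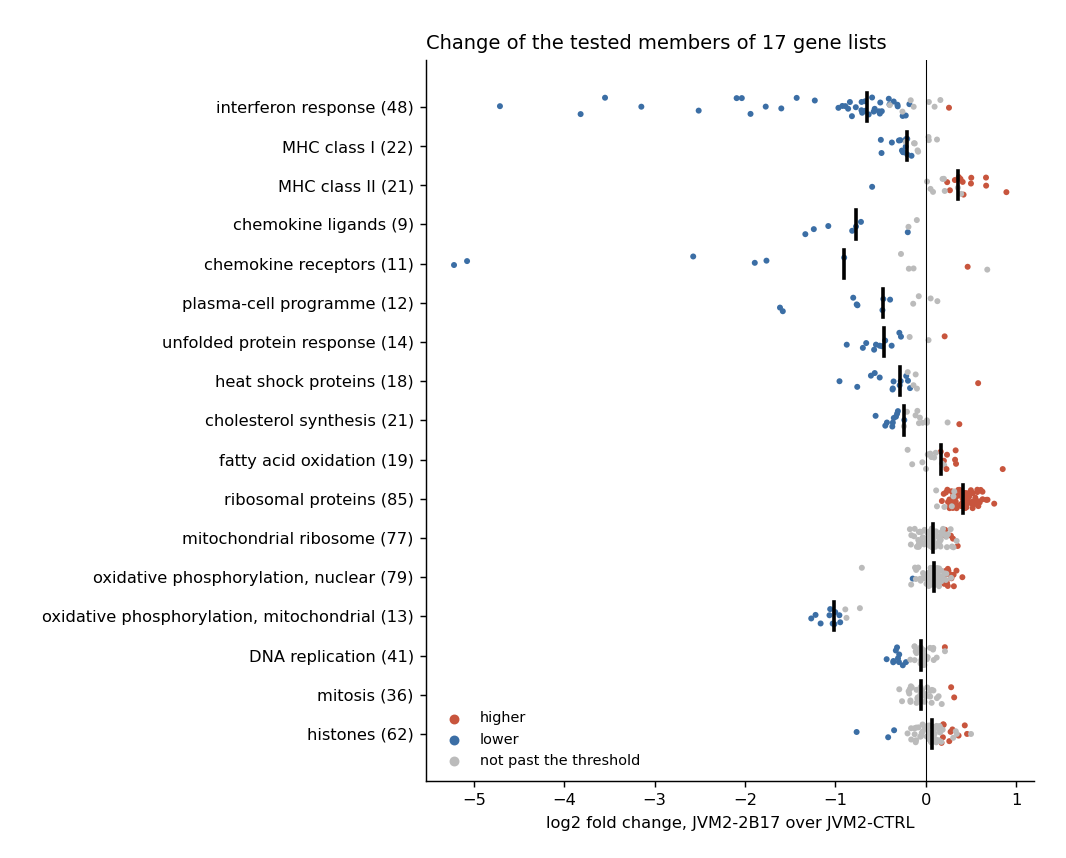
Log2 fold change of JVM2-2B17 over JVM2-CTRL (horizontal axis) for the tested members of 17 gene lists, 1 point for each gene, red where called higher, blue where called lower and grey otherwise, with a black bar at the median and the number of genes tested in brackets. Interferon genes lie to the left with a median of -0.65, ribosomal protein genes to the right with a median of 0.41, and mitosis genes around 0.

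Few mitosis genes were called, and more genes of replication and G1 control were lower than higher. Of 36 mitosis genes 2 rose (5.56%) and 0 fell, with a median of -0.05. SPC24 had 70.2, 68 and 65.4 CPM in JVM2-CTRL and 84.6, 88.3 and 80.6 CPM in JVM2-2B17 (log2 fold change 0.32, SE 0.063, adjusted p = 0.0024). Its kinetochore partner NUF2 had 32.4, 40.7 and 37.3 CPM in JVM2-CTRL and 42.7, 47.5 and 44.1 CPM in JVM2-2B17 (log2 fold change 0.28, SE 0.090, adjusted p = 0.034), a call lost with DESeq2 (adjusted p = 0.062), without JVM2-CTRL replicate 1 (adjusted p = 0.13) or 3 (adjusted p = 0.083) or without JVM2-2B17 replicate 3 (adjusted p = 0.062). The number of mitosis genes called lower was 5 without JVM2-2B17 replicate 2 and 8 with trends over length and GC content removed. DNA replication genes fell in 10 of 41 cases (24.4%, against 15.3% of all genes) and rose in 1. The licensing factor CDC6 had 84.5, 80.97 and 81.5 CPM in JVM2-CTRL and 65.6, 63.2 and 63.6 CPM in JVM2-2B17 (log2 fold change -0.36, SE 0.059, adjusted p = 0.00062). Cyclin E1, CCNE1, had 26.5, 28.5 and 31.8 CPM in JVM2-CTRL and 22.02, 23.1 and 19.1 CPM in JVM2-2B17 (log2 fold change -0.43, SE 0.10, adjusted p = 0.0068). The helicase subunit MCM3 rose (log2 fold change 0.21, SE 0.055, adjusted p = 0.012), a call lost without JVM2-CTRL replicate 2 (adjusted p = 0.065) or 3 (adjusted p = 0.065). Among 22 genes of G1 control, 1 rose and 8 fell (4.55% and 36.4%). The number of G1 control genes called higher was 3 without JVM2-2B17 replicate 2. E2F2 had 70.6, 70.7 and 67.6 CPM in JVM2-CTRL and 50.03, 45.04 and 51.1 CPM in JVM2-2B17 (log2 fold change -0.51, SE 0.069, adjusted p = 0.00013). E2F7 had 51.9, 49.7 and 53.7 CPM in JVM2-CTRL and 35.98, 34.6 and 40.5 CPM in JVM2-2B17 (log2 fold change -0.48, SE 0.078, adjusted p = 0.00056). Both fell. The pocket protein RBL2 rose with 73.6, 70.2 and 76.2 CPM in JVM2-CTRL and 88.8, 86.2 and 86.1 CPM in JVM2-2B17 (log2 fold change 0.25, SE 0.060, adjusted p = 0.0079) and lost its call without JVM2-CTRL replicate 2 (adjusted p = 0.058). Of 62 replication-dependent histone genes tested, 11 rose and 3 fell (17.7% and 4.84%). The number of histone genes called higher was 5 without JVM2-CTRL replicate 2 or without JVM2-CTRL replicate 3, 18 with trends over length and GC content removed and 21 without JVM2-2B17 replicate 2. HIST1H4I had 123, 119 and 115 CPM in JVM2-CTRL and 163, 166 and 162 CPM in JVM2-2B17 (log2 fold change 0.46, SE 0.057, adjusted p = 6.8e-05). HIST1H4F had 272, 253 and 245 CPM in JVM2-CTRL and 148, 153 and 151 CPM in JVM2-2B17 (log2 fold change -0.77, SE 0.059, adjusted p = 1.1e-06), though these copies encode the same protein and can share reads. Among H3 genes the log2 fold change was -0.42 for HIST1H3I and 0.43 for HIST2H3D, both called, the latter not without JVM2-CTRL replicate 2 or 3.

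Of 26 cell-death genes 7 rose and 4 fell (26.9% and 15.4%). BCL2A1, a survival factor of activated B cells, had 72.6, 70.9 and 72.4 CPM in JVM2-CTRL and 96.3, 107 and 96.4 CPM in JVM2-2B17 (log2 fold change 0.47, SE 0.063, adjusted p = 0.00012). DIABLO, which relieves caspase inhibition, had 7.87, 8.30 and 9.76 CPM in JVM2-CTRL and 12.96, 12.8 and 11.1 CPM in JVM2-2B17 (log2 fold change 0.51, SE 0.13, adjusted p = 0.0094). TNFSF10, the death ligand TRAIL and itself an interferon target, had 18.6, 21.1 and 20.9 CPM in JVM2-CTRL and 4.71, 5.74 and 6.22 CPM in JVM2-2B17 (log2 fold change -1.87, SE 0.13, adjusted p = 4.0e-07). BCL2L11, the killer BIM, had 3.49, 3.45 and 5.52 CPM in JVM2-CTRL and 2.18, 1.58 and 2.83 CPM in JVM2-2B17 (log2 fold change -0.91, SE 0.27, adjusted p = 0.023), and lost its call without JVM2-CTRL replicate 3 (adjusted p = 0.11) or JVM2-2B17 replicate 1 (adjusted p = 0.065). Of 21 genes of the integrated stress response, which follows amino acid lack, 1 rose and 6 fell (4.76% and 28.6%). The cystine transporter SLC7A11 had 27.6, 34.98 and 33.3 CPM in JVM2-CTRL and 10.8, 10.8 and 13.1 CPM in JVM2-2B17 (log2 fold change -1.47, SE 0.12, adjusted p = 1.9e-06). The leucine transporter SLC7A5 had 58.9, 62.8 and 58.8 CPM in JVM2-CTRL and 28.6, 24.1 and 26.5 CPM in JVM2-2B17 (log2 fold change -1.19, SE 0.080, adjusted p = 3.6e-07). In both transporter genes all JVM2-2B17 values lay below all JVM2-CTRL values, as the rule for naming them required. DDIT4, an inhibitor of mTORC1, rose with 192, 191 and 192 CPM in JVM2-CTRL and 225, 241 and 219.6 CPM in JVM2-2B17 (log2 fold change 0.25, SE 0.057, adjusted p = 0.0050).

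Genes of the Toll-like receptor pathway, which senses microbial molecules, rose in 7 of 16 cases and fell in 3 (43.8% and 18.8%). The receptor genes tested, TLR1, TLR6, TLR7, TLR8 and TLR10, were all called higher. The 3 falls were UNC93B1, MYD88 and IRAK1. TLR1, TLR7, TLR10 and IRAK1 were named after their values were seen. The number of Toll-like receptor pathway genes called lower was 1 without JVM2-CTRL replicate 1. TLR8, a sensor of single-stranded RNA, had 0.199, 0 and 0.318 CPM in JVM2-CTRL and 3.99, 3.49 and 4.19 CPM in JVM2-2B17, a ratio of the arms of 23.5 (95% exact counting interval 9.78 to 73.8, adjusted p = 8.1e-06), and TLR6 had 18.7, 22.01 and 19.4 CPM in JVM2-CTRL and 37.6, 35.5 and 40.8 CPM in JVM2-2B17 (log2 fold change 0.92, SE 0.093, adjusted p = 1.3e-05). UNC93B1, which brings endosomal receptors to their place, had 40.7, 38.4 and 34.3 CPM in JVM2-CTRL and 28.01, 27.6 and 27.2 CPM in JVM2-2B17 (log2 fold change -0.45, SE 0.085, adjusted p = 0.0015). The adaptor MYD88 fell (log2 fold change -0.35, SE 0.091, adjusted p = 0.011), a call lost without JVM2-CTRL replicate 1 (adjusted p = 0.052) or 3 (adjusted p = 0.057).

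Cancer-testis antigens, germline genes that many tumors express, fell in most of the cases tested. The table lists 30 such genes, and 18 were tested, of which 14 fell (77.8%) and 2 rose. The median log2 fold change was -3.29, the same with the gene whose JVM2-2B17 libraries were all at 0 set to its bound. The number of cancer-testis genes called lower was 3 among genes with at least 10 counts in every library. The median was then -0.23. In 7 of the 18 an arm had at most 3 counts in every library. MAGEA6 rose with 18.6, 21.3 and 20.5 CPM in JVM2-CTRL and 32.4, 28.4 and 32.02 CPM in JVM2-2B17 (log2 fold change 0.62, SE 0.093, adjusted p = 0.00030). MAGEA3 rose with 84.7, 90.8 and 86.2 CPM in JVM2-CTRL and 106, 109 and 107 CPM in JVM2-2B17 (log2 fold change 0.30, SE 0.057, adjusted p = 0.0020). These are near-identical genes between which reads can be split. The symbol rule also took in SSX2IP and CTAGE5, which belong to other families. The summed level of the list was 441, 463 and 462 CPM in JVM2-CTRL and 203, 198 and 206 CPM in JVM2-2B17.

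Zinc finger genes of the ZNF series, mostly DNA-binding repressors, gave 71 rises and 30 falls among 430 tested (16.5% and 6.98%), the median log2 fold change being 0.08. The number of zinc finger genes called higher was 44 when the exact test of edgeR and DESeq2 both had to pass and 46 with DESeq2. The number of zinc finger genes called lower was 18 when the exact test of edgeR and DESeq2 both had to pass or without JVM2-CTRL replicate 3. ZNF521, a cofactor of early haematopoietic cells, had 0.498, 0.280 and 0.106 CPM in JVM2-CTRL and 20.1, 18.6 and 20.4 CPM in JVM2-2B17 (log2 fold change 5.99, SE 0.23, adjusted p = 2.2e-09). ZNF607 had 0.199, 0.746 and 0.425 CPM in JVM2-CTRL and 5.08, 5.18 and 5.54 CPM in JVM2-2B17 (log2 fold change 3.47, SE 0.31, adjusted p = 3.5e-06). ZNF462 had 6.38, 5.78 and 5.31 CPM in JVM2-CTRL and 0.272, 0.225 and 0.792 CPM in JVM2-2B17 (log2 fold change -3.76, SE 0.32, adjusted p = 2.7e-06). ZNF423, which antagonises the B-cell factor EBF1, had 6.18, 5.04 and 6.37 CPM in JVM2-CTRL and 0.725, 0.338 and 0.905 CPM in JVM2-2B17 (log2 fold change -3.12, SE 0.28, adjusted p = 4.2e-06). Nuclear receptors rose in 4 of 11 cases (36.4%) and fell in 0. The number of nuclear receptor genes called higher was 2 with DESeq2, when the exact test of edgeR and DESeq2 both had to pass, without JVM2-CTRL replicate 1, without JVM2-CTRL replicate 3 or without JVM2-2B17 replicate 3. NR4A1, an immediate early gene of receptor signalling, had 2.49, 3.17 and 1.91 CPM in JVM2-CTRL and 5.35, 4.62 and 6.34 CPM in JVM2-2B17 (log2 fold change 1.09, SE 0.22, adjusted p = 0.0024), and its relative NR4A2 rose too (log2 fold change 0.63, SE 0.20, adjusted p = 0.031), a call lost with DESeq2, without JVM2-CTRL replicate 1, without JVM2-CTRL replicate 3 or without JVM2-2B17 replicate 3 (adjusted p between 0.089 and 0.11). Of 22 redox and xenobiotic genes, 6 rose and 1 fell (27.3% and 4.55%). The number of redox and xenobiotic genes called lower was 5 without JVM2-2B17 replicate 2. CYP1B1, a cytochrome of steroid and xenobiotic oxidation, had 25.7, 30.5 and 27.8 CPM in JVM2-CTRL and 48.6, 56.1 and 53.7 CPM in JVM2-2B17 (log2 fold change 0.91, SE 0.087, adjusted p = 7.5e-06), and the transferase gene MGST2 rose (log2 fold change 0.59, SE 0.16, adjusted p = 0.015), a call lost without JVM2-CTRL replicate 1, without JVM2-CTRL replicate 2 or without JVM2-2B17 replicate 1 (adjusted p between 0.052 and 0.081). NQO1, a quinone reductase, fell (log2 fold change -0.28, SE 0.087, adjusted p = 0.029), a call lost with DESeq2, without JVM2-CTRL replicate 1, without JVM2-CTRL replicate 2, without JVM2-2B17 replicate 1 or without JVM2-2B17 replicate 3 (adjusted p between 0.068 and 0.13). By position, medians of the nuclear chromosomes lay between -0.07 and 0.06, and chromosome 6 had 21.1% of its genes called higher. What part the HLA and histone genes on it have in that share was not tested. The share called lower was 28.4% on chromosome 18, 21.9% on chromosome 21 and 21.6% on chromosome X.

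Few markers of other cell types were listed. Of 9 T-cell and NK-cell markers 3 were in the table, and the CD3 genes, CD2, CD8A and GNLY were not listed. The summed level of that list was 47.3 to 51.02 CPM in JVM2-CTRL and 35.02 to 42.2 CPM in JVM2-2B17, nearly all of it TRAC, which fell (log2 fold change -0.33, SE 0.095, adjusted p = 0.022). The call of TRAC was lost without JVM2-CTRL replicate 1 (adjusted p = 0.093) or 3 (adjusted p = 0.068). Of 8 myeloid markers 2 were listed and 0 tested, with a sum of at most 1.70 CPM in a library, and 0 of 5 erythroid markers were listed. Of 6 stromal and epithelial markers 4 were listed and 3 tested, and PDGFRB, a growth factor receptor, rose with 18.5, 16.8 and 15.6 CPM in JVM2-CTRL and 28.3, 22.97 and 27.7 CPM in JVM2-2B17 (log2 fold change 0.63, SE 0.11, adjusted p = 0.00082). The part of cells other than B cells in these values was not tested. Of 12 markers used in chronic lymphocytic leukemia 6 were tested, of which 2, CD38 and ITGA4, fell. The 1 that rose, named after its value was seen, was FCER2, which encodes CD23 and whose arms overlapped (log2 fold change 0.25). The number of these markers called higher was 0 when any library other than JVM2-2B17 replicate 2 was left out. The RT-qPCR reference genes B2M and HPRT1 were not past the threshold. B2M had 3757, 3886 and 3789 CPM in JVM2-CTRL and 3555, 3684 and 3499.6 CPM in JVM2-2B17 (log2 fold change -0.09, SE 0.045, adjusted p = 0.16). HPRT1 had 21.02, 22.9 and 20.6 CPM in JVM2-CTRL and 22.1, 21.4 and 21.7 CPM in JVM2-2B17 (log2 fold change 0.02, SE 0.088, adjusted p = 0.91). B2M was called lower with trends over length and GC content removed or without JVM2-2B17 replicate 2 (adjusted p between 0.014 and 0.028).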

How the data were processed

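JVM2 cells with the UGT2B17 vector (3 libraries) and with the empty vector (3 libraries) were compared. The authors depleted ribosomal RNA, trimmed paired-end reads with Trimmomatic, aligned them to hg38 with TopHat2 2.0.14 and deposited read counts per Ensembl gene from HTSeq. The strand setting and annotation release are not given in the sources used here, so reads of overlapping antisense genes cannot be told apart. The lowest total of a gene in the table was 10. The table of the MEC1 line and the authors' own columns of normalised values, fold changes and p-values were not used.

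Genes were kept with filterByExpr (minimum count 10, minimum total 15), leaving 13021 of 17144, and tested with edgeR 4.0.16 in R 4.3.3 (TMM scaling, quasi-likelihood F-test, two-sided, Benjamini-Hochberg adjustment over all genes tested, threshold 0.05). The common biological coefficient of variation was 6.92%. Depth was 8809179 to 11231330 counts a library. Alternatives were DESeq2 1.42.0, both tools together, RLE scaling, library size only, other filters, the replicate number as a block, removal of trends over exonic length and GC content, and each library left out. The test was checked on simulated data. Positions are those of GENCODE release 44, matched by identifier for 16799 genes, and promoters those of RefSeq.

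Named genes were UGT2B17, every tested gene of the lists of prostanoids, leukotrienes, UGT enzymes, B-cell markers and reference genes, up to 2 rises and 2 falls of every other list (average log2 CPM of at least 1) and the 10 largest rises and falls overall (at least 4), these called and without overlap of the arms, and the 5 largest rises and falls in mean CPM. The 51 lists, the members and the tests were chosen with earlier results of these data known. Some genes that this rule names are not reported here. The replicates are described as biological. Counting intervals (95%) and the floor of 3 counts cover counting error only.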

Additional observations from a re-analysis of the deposited data

How the results depend on the processing

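No called gene named here changed direction under any alternative. The numbers called were 2996 with DESeq2, 2836 where the exact test of edgeR and DESeq2 both had to pass, 3826 with RLE scaling, 3800 with library size only, 4052 without a filter, 3299 among genes with at least 10 counts in every library and 4474 with trends over length and GC content removed. They lay between 2687 and 4541 when 1 library was left out. UGT2B17 stayed past the threshold throughout, with a log2 fold change between 0.35 and 0.54. Of the 163 called genes that the naming rule took in, 151 kept their call with DESeq2 and 140 to 162 when 1 library was left out. The number of mitochondrial protein genes of oxidative phosphorylation called lower was 2 with DESeq2 and 2 with both tools, and 5 to 12 with 1 library left out. Class I genes called lower numbered 7 to 14 and fatty acid oxidation genes called higher 4 to 8 with 1 library left out. Of the cancer-testis genes, 3 were called lower among genes with at least 10 counts in every library, a filter that takes out genes nearly silent in an arm. The cause of the other differences was not tested.

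The correlations of same-numbered libraries, after the mean of each arm was removed, were 0.0857, 0.117 and -0.0059. Among JVM2-CTRL libraries, replicates 1 and 2 correlated best with their own number, and replicate 3 with JVM2-2B17 replicate 2 (0.0094). With 3 libraries in each arm, these values cannot decide whether the replicate numbers pair the samples. With the replicate number as a block 4236 genes were called, against 3821 without it. With that block 17 histone genes, 9 mitochondrial ribosome genes and 3 G1 control genes were called higher and 5 mitosis genes lower, against 11, 5, 1 and 0 without it, and TBXAS1 was called lower (adjusted p = 0.044). At 8809179 to 11231330 counts a library, genes with few counts could not be tested.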
